A study of Mus musculus with 10 samples.

Results

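Cyclic AMP is made from ATP by adenylyl cyclases and read mainly by protein kinase A. The 10 genes described here cover this route: Gnas, which encodes the stimulatory G protein alpha subunit, the membrane cyclases Adcy6, Adcy7 and Adcy9, the catalytic subunits Prkaca and Prkacb, the regulatory subunits Prkar1a, Prkar1b and Prkar2a, and the transcription factor Creb1. They were chosen by name among 18194 genes that had a probe set annotated to them alone, and 36 such probe sets belonged to them. The brightest probe set on average over the arrays stands for its gene, and the others served as a check. After a filter on dim values 11939 genes were kept, all 10 of these among them, and 26 of their 36 probe sets passed.

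In the resting holoenzyme 2 regulatory subunits hold 2 catalytic subunits inactive. Binding of cAMP to the regulatory subunits frees the catalytic ones, which phosphorylate many substrates and, in the nucleus, CREB. In T cells a rise of cAMP is known to dampen signalling from the antigen receptor, phosphodiesterases end the signal, and regulatory T cells, which depend on the transcription factor Foxp3, are known for a high cAMP content.

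Affymetrix mouse arrays were hybridized with RNA from CD4 T cells, 1 array in each of 10 groups. GFPfoxp3 cells were the GFP-positive cells of Foxp3(gfp/gfp) females, whose Foxp3 carries green fluorescent protein (GFP) fused to it. GFPko cells were the GFP-positive cells of Foxp3(gfpko/wt) females, whose gfpko allele makes GFP and no Foxp3. Because the gene is X-linked, these cells use the mutant allele while others in the same animal use the normal one. CD25pos and CD25neg cells were the GFP-negative cells of Foxp3(gfp/gfp) females with and without CD25, the alpha chain of the receptor for interleukin-2 (IL-2). GFPfoxp3, GFPko and CD25pos cells were each taken from mice given IL-2 as well, 4 injections of 50 ng per g within 24 h, with the cells collected 30 min after the last. For the arrays without IL-2 the labels do not say whether vehicle was given. All mice were females 6 to 8 weeks old, the gfp line backcrossed 8 to 10 times to C57BL/6 and the gfpko line 5 times, so allele and backcross depth cannot be told apart in GFPko cells. The other 3 groups were CD25-positive CD4 cells of C57BL/6 mice, cultured with anti-CD3, anti-CD28 and IL-2 and transduced with the retroviral vector MigR1 that carried PDE3B, a cAMP phosphodiesterase, or PDE3B with the substitution H801A, or nothing (empty). Before transfer such cultures held over 70% Foxp3-positive cells, of which over 55% were transduced, per the labels. They were transferred together with CD25-negative cells into mice deficient in T cell receptor alpha, and GFP-positive, GITR-positive donor cells were sorted 3 weeks later. Cells came from lymph nodes and spleen pooled, and how many mice stand behind an array is not known here.

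Of T cell markers, 7 of 8 listed were measured and all 7 lay above the array median on every array. Cd4 was lower with the PDE3B, H801A and empty vectors (8.05, 8.65 and 9.29) than on the 7 sorted arrays (10.30 to 10.78). Cd28 was lower there as well (10.22, 10.01 and 10.36 against 11.11 to 11.71), and the other T cell markers measured overlapped. Foxp3 lay at 10.86 on both GFPfoxp3 arrays, at 9.39 with and 8.33 without IL-2 in GFPko cells, at 2.85 with and 3.90 without IL-2 in CD25pos cells, at 2.45 in CD25neg cells and between 11.26 and 11.52 on the vector arrays. Where its probe set lies relative to the part lost in gfpko is not known here, so the value in GFPko cells does not check the label. The 3 vector arrays stood apart in RNA length: the gap between the 3′ and 5′ probe sets of Actb, which widens as RNA or its copies shorten, was 5.87 to 6.38 log2 units there and 2.70 to 3.80 on the sorted arrays. A level below the array median over all probe sets (3.04 to 3.22 on the log2 scale) was taken as not above background. All levels are log2 expression values, and a level of one gene was not set against that of another. In sorted bulk cells, fewer cells of a type and less RNA per cell cannot be told apart.

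Promoter windows of RefSeq (GRCm38.p6, 300 bases, most of them upstream of a start site) were found by symbol for 9 of the 10 genes, 26 windows in all, none being listed for Adcy6. They were searched on both strands for the cAMP response element TGACGTCA, for its core TGACG, which the full element holds on each strand, and for the forkhead motif GTAAACA. The full element is in 1.79% of all 32851 windows of this length, the core in 20.8% and the forkhead motif in 3.65%. Of the genes described here, the full element lay in 2 overlapping windows of Prkar1a, the core in 12 of 26 windows, from 8 of 9 genes, and the forkhead motif in none. Overlapping windows count the same core more than once, as for Gnas and Prkar1a, and genes with several windows have more chances. The 20.8% is a share of windows, and the share of all genes was not computed. These counts describe the letters and not a bound site, and the start site used in these cells is not known. The window of Prkar2a, its only one, and 1 of the 5 windows of Prkar1b, the one that holds the core, are shown because these regulatory subunits were called between populations. One of the Prkar1a windows is shown because it holds the full element. Bases run 5′ to 3′ on the gene's strand, and capitals mark the element and its core.

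Prkar2a, chr9:108691893-108692192, plus strand: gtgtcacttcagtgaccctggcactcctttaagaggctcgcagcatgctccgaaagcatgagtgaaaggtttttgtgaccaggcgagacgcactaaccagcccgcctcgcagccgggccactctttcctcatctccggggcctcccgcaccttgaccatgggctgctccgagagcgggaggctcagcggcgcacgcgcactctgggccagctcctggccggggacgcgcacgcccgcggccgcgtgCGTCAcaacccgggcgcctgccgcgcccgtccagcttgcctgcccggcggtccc
Prkar1b, chr5:139149952-139150251, minus strand: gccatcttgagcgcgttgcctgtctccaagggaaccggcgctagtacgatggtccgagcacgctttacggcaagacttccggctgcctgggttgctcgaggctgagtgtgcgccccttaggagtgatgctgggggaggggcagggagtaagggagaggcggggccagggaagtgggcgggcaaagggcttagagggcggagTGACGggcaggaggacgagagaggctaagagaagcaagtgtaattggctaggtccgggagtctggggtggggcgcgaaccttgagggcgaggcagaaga
Prkar1a, chr11:109650612-109650911, plus strand: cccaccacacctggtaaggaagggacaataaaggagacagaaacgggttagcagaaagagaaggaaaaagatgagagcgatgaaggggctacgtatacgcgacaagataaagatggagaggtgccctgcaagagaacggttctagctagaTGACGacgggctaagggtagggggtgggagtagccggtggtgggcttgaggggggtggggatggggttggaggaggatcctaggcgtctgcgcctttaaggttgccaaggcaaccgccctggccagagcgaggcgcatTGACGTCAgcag

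Of the 10 genes 8 were above the array median on all 10 arrays. Adcy6 was so on the 7 sorted arrays and on no vector array, and Prkar1b on 7 arrays. The largest spans over the 10 arrays were 6.07 log2 units for Adcy6, 3.74 for Prkar1b and 2.32 for Prkaca, and the smallest was 0.27 for Adcy9.

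**Figure D1:**
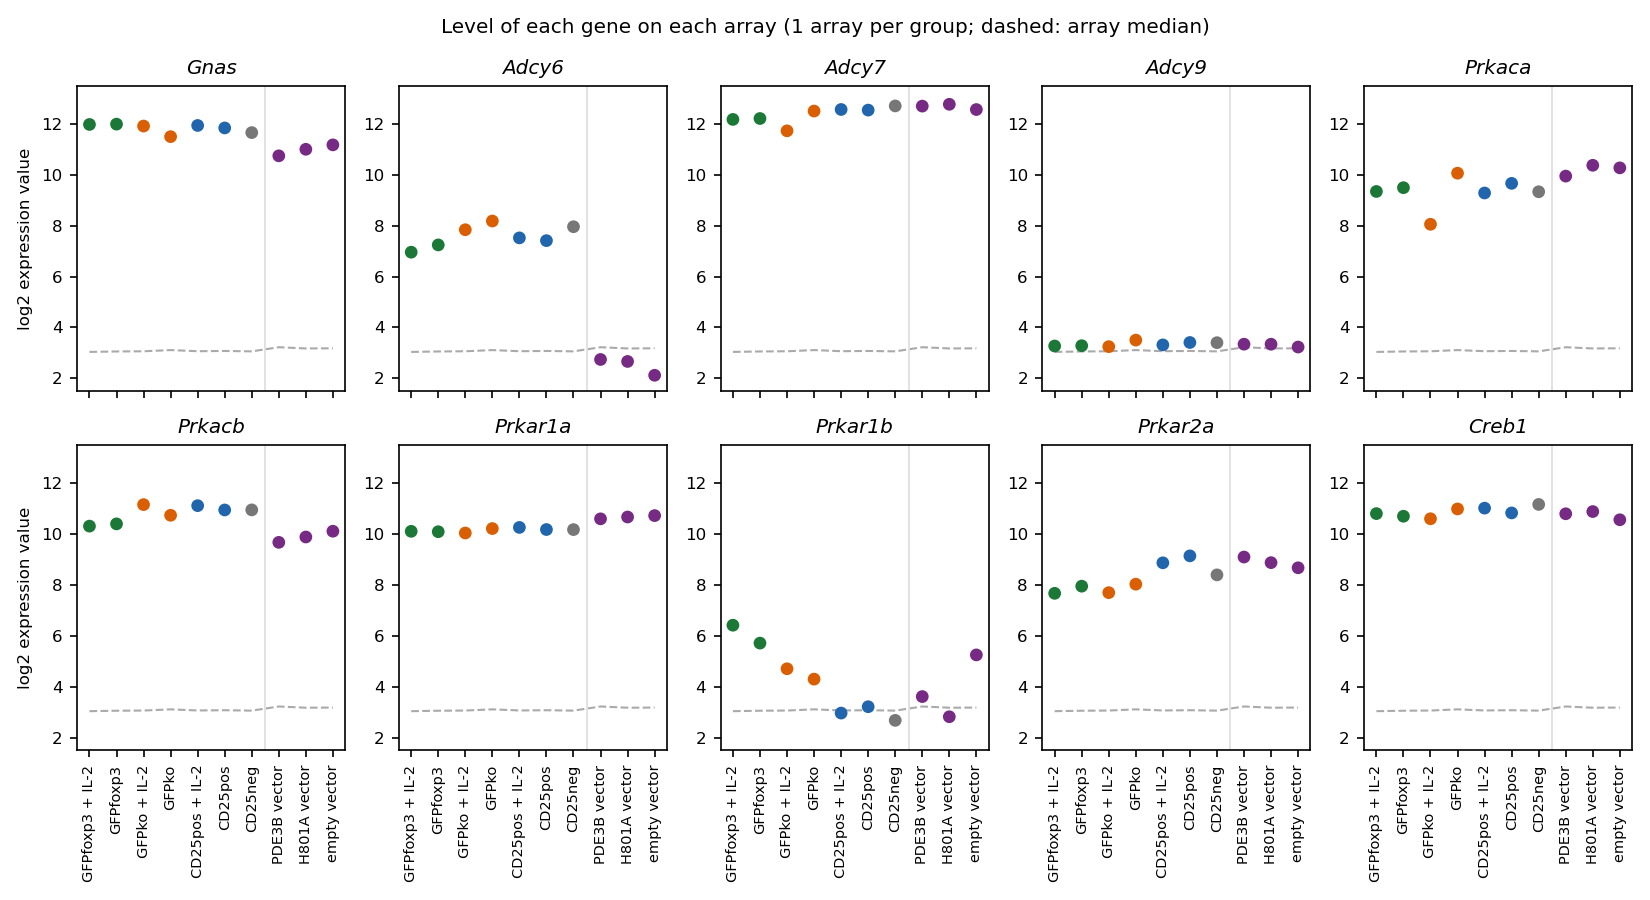
Log2 expression value (vertical axis) of each of the 10 genes on each of the 10 arrays (horizontal axis, 1 point per array, green GFPfoxp3, orange GFPko, blue CD25pos, grey CD25neg, purple vector arrays). The dashed line is the median of all probe sets on that array. Adcy6 lies under that line on the 3 vector arrays and between 6.96 and 8.19 on the 7 sorted ones, and Prkar2a is lower on the 4 GFPfoxp3 and GFPko arrays than on the 2 CD25pos arrays.

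Differences between the sorted populations were tested in 1 additive limma fit of population and IL-2 to all 11939 kept genes, over the 6 arrays of the populations that had an IL-2 partner. Calls have a Benjamini-Hochberg adjusted p under 0.05. The spread in this fit is how unevenly the 3 populations differed between the IL-2 states, so its p-values do not measure the spread between animals. The comparisons share arrays and are not independent of each other. In GFPfoxp3 against GFPko cells 2 of the 10 genes were called, Prkar1b higher and Adcy6 lower, where 7.47% of all kept genes were called (5.44% higher, 2.03% lower). In GFPfoxp3 against CD25pos cells 2 were called, Prkar1b higher and Prkar2a lower, where the share of all kept genes was 8.73% (5.28% higher, 3.45% lower). In GFPko against CD25pos cells 1 was called, Prkar2a lower, where that share was 3.48% (1.25% higher, 2.24% lower). With so few genes these counts are not shown to exceed the share over all genes. The median difference of the 10 genes was -0.036, -0.15 and -0.11 in these comparisons in the same order, and that of all kept genes 0.0080, -0.026 and -0.015.

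**Figure D2:**
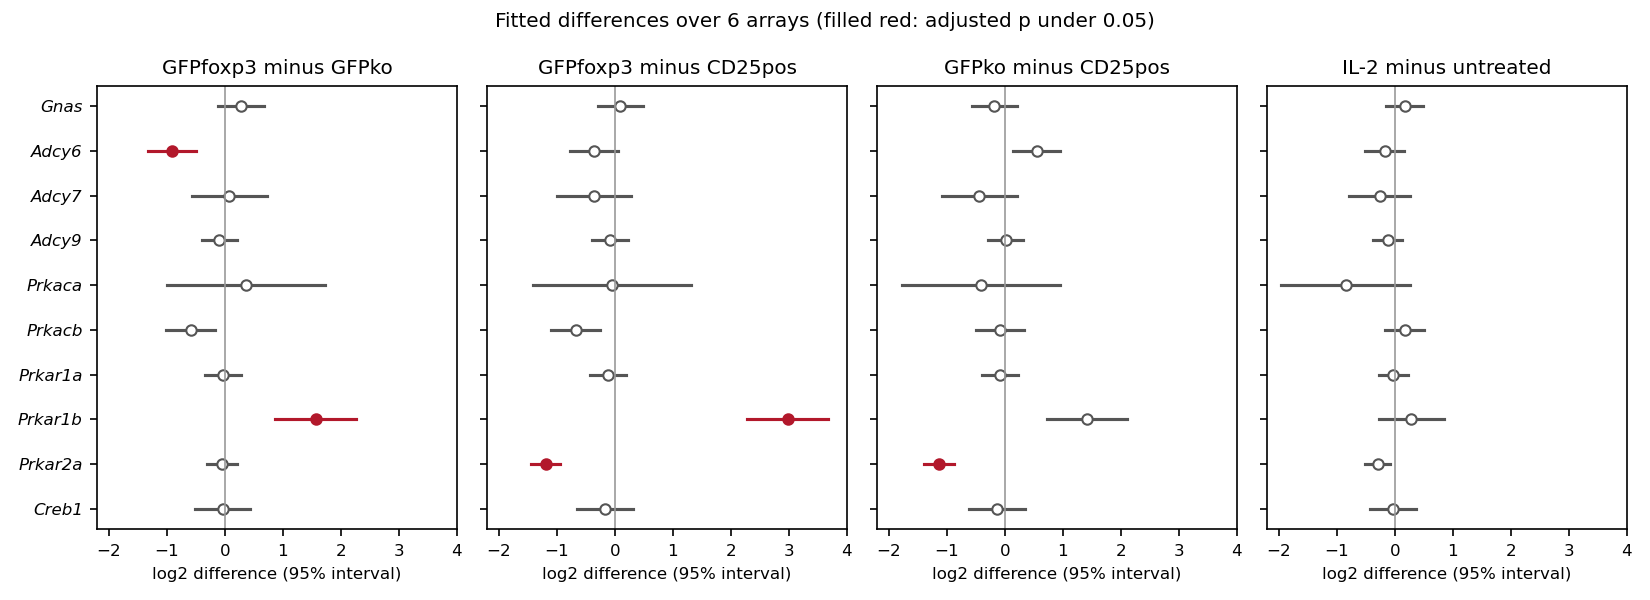
Fitted log2 difference (horizontal axis) of each gene with its 95% interval in the 4 comparisons of the 6-array fit. Filled red points have an adjusted p under 0.05: Prkar1b at 1.57 and Adcy6 at -0.91 in GFPfoxp3 minus GFPko, Prkar1b at 2.98 and Prkar2a at -1.20 in GFPfoxp3 minus CD25pos, and Prkar2a at -1.14 in GFPko minus CD25pos.

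Gnas couples receptors such as those for prostaglandin E2 and adenosine to the cyclases. It lay at 11.99 with and 12.00 without IL-2 in GFPfoxp3 cells, at 11.92 and 11.51 in GFPko cells, at 11.95 and 11.85 in CD25pos cells, and at 11.67 in CD25neg cells. Its differences did not pass the test: 0.28 in GFPfoxp3 minus GFPko (95% interval -0.11 to 0.67), 0.095 in GFPfoxp3 minus CD25pos and -0.18 in GFPko minus CD25pos. Intervals of this width leave room for differences of up to about 1.59-fold between GFPfoxp3 and GFPko cells. A second, dim Gnas probe set went the other way, with 2.74 and 2.83 in GFPfoxp3 cells with and without IL-2, against 3.56 and 3.79 in GFPko cells (difference -0.89, adjusted p = 0.0319 with every kept probe set tested). On this probe set GFPfoxp3 cells lay below the array median in both states and GFPko cells above it, so the 2 probe sets of Gnas disagree.

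Adcy6, a cyclase that calcium inhibits, was 1.88-fold lower in GFPfoxp3 than in GFPko cells. Its level was 6.96 with and 7.25 without IL-2 in GFPfoxp3 cells, against 7.84 and 8.19 in GFPko cells, and the 2 populations did not overlap. The fitted difference was -0.91 (SE 0.152, 95% interval -1.32 to -0.50, adjusted p = 0.0464), with -0.88 after IL-2 and -0.94 without. CD25pos cells lay between them at 7.52 and 7.42, and CD25neg cells at 7.96. Neither step to CD25pos passed the test: -0.37 for GFPfoxp3 (adjusted p = 0.238) and 0.55 for GFPko (adjusted p = 0.155). The call of Adcy6 is close to the threshold. Over the alternatives that kept all 6 arrays or left out a whole population, the adjusted p ran from 0.0138 to 0.102. Leaving out any 1 of the 6 arrays gave differences of -0.79 to -1.04. Adcy6 has 1 probe set here, so no other reading checks it.

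Adcy7, a cyclase expressed in blood cells, lay at 12.18 with and 12.22 without IL-2 in GFPfoxp3 cells, at 11.74 and 12.51 in GFPko cells, at 12.58 and 12.55 in CD25pos cells and at 12.72 in CD25neg cells. The single low value was GFPko cells after IL-2, and no population difference passed (GFPfoxp3 minus GFPko 0.078, interval -0.57 to 0.72). On the next brightest probe set GFPko cells were also lower after IL-2, at 9.13 against 9.65 without. There that array was not the lowest, as the other sorted arrays ran from 9.02 to 10.22. Adcy9 lay just above the array median on every array, between 3.23 and 3.50, and these arrays say little about it. Its 3 other probe sets gave at most 3.75.

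The catalytic subunit Prkacb was lower in GFPfoxp3 cells in value, but its differences did not pass the test. GFPfoxp3 cells had 10.32 with and 10.41 without IL-2, against 11.16 and 10.74 in GFPko cells and 11.12 and 10.95 in CD25pos cells, and CD25neg cells had 10.96. Both GFPfoxp3 arrays were therefore below all 5 other sorted arrays. The fitted difference was -0.59 against GFPko cells (interval -1.01 to -0.17, adjusted p = 0.106) and -0.68 against CD25pos cells (interval -1.10 to -0.26, adjusted p = 0.0815). Both passed when each array was centred on its median over the kept genes (-0.74, adjusted p = 0.0322, and -0.69, adjusted p = 0.0384). Under the other planned settings neither passed, with an adjusted p of 0.0908 to 0.190 and of 0.0660 to 0.177. The second probe set of Prkacb, near background, differed by -0.13 and -0.060.

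Prkaca, the other catalytic subunit, was read at 9.35 with and 9.50 without IL-2 in GFPfoxp3 cells, at 8.06 and 10.07 in GFPko cells, at 9.29 and 9.67 in CD25pos cells and at 9.34 in CD25neg cells. The 2 GFPko arrays were the lowest and the highest of the 7, which gave the widest residual SD among the 10 genes, 0.718, and no call. The interval of GFPfoxp3 minus GFPko ran from -1.01 to 1.73 and tells little about either direction. The second probe set was steadier, at 4.93 with and 5.32 without IL-2 in GFPko cells and between 4.72 and 5.01 on the other sorted arrays.

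Prkar2a, the regulatory subunit alpha of type II protein kinase A, which anchoring proteins tether within the cell, was lower in both GFP-positive populations than in CD25pos cells. It lay at 7.67 with and 7.96 without IL-2 in GFPfoxp3 cells and at 7.70 and 8.03 in GFPko cells, against 8.87 and 9.15 in CD25pos cells. The 4 GFP-positive arrays did not overlap with the 2 CD25pos arrays, and CD25neg cells, at 8.40, lay between. GFPfoxp3 cells were 2.29-fold lower than CD25pos cells (-1.20, SE 0.0948, adjusted p = 0.0102), and GFPko cells 2.21-fold lower (-1.14, SE 0.0948, adjusted p = 0.0220). GFPfoxp3 and GFPko cells differed by -0.053 (interval -0.31 to 0.20), a difference that did not pass (adjusted p = 0.763).

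The differences of Prkar2a kept their size with single arrays left out. Without any one of the 4 GFPfoxp3 and CD25pos arrays the GFPfoxp3 difference was -1.18 to -1.21. The GFPko difference was -1.12 to -1.17 with any 1 of the 6 arrays left out. Each of these fits leaves 1 array in a population, so whether it passed is not read. With all GFPko arrays left out the GFPfoxp3 difference passed (adjusted p = 0.0331). With all GFPfoxp3 arrays left out the GFPko difference did not pass (adjusted p = 0.0916), and no kept gene was called there.

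The second bright probe set of Prkar2a showed the same direction against CD25pos cells and a different order of the GFP-positive cells. It read 7.23 with and 7.39 without IL-2 in GFPfoxp3 cells and 6.80 and 6.88 in GFPko cells, against 7.98 and 8.12 in CD25pos cells. With every kept probe set tested, its difference from CD25pos cells was -0.74 in GFPfoxp3 cells (adjusted p = 0.0374) and -1.21 in GFPko cells (adjusted p = 0.0345). Between GFPfoxp3 and GFPko cells it was 0.46, which did not pass (adjusted p = 0.0852). The summed level of CD8 and NK cell markers was also highest in CD25pos cells. Of 8 listed, 7 were measured and their summed linear level was 214 with and 190 without IL-2 in GFPfoxp3 cells and 240 and 148 in GFPko cells, against 2780 and 2393 in CD25pos cells, 810 in CD25neg cells and 714 to 1085 on the vector arrays. Klrd1, Eomes and Nkg7 made up the high sums of CD25pos cells, while Ncr1 lay below the array median on all 10 arrays. Cd8a lay between 3.13 and 3.21 on the sorted arrays. Cd8b1 was higher in GFPko cells (5.53 with and 4.86 without IL-2) than in CD25pos cells (4.48 and 4.47). The part of these markers in the difference of Prkar2a was not tested.

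Prkar1b, the regulatory subunit beta of type I protein kinase A, best known from nervous tissue, had the largest differences of the 10 genes between the sorted populations. Its level was 6.42 with and 5.71 without IL-2 in GFPfoxp3 cells, 4.70 and 4.30 in GFPko cells, 2.96 and 3.21 in CD25pos cells and 2.68 in CD25neg cells. The 3 populations did not overlap, in the order GFPfoxp3, GFPko, CD25pos, and CD25neg cells and CD25pos cells after IL-2 lay below the array median. GFPfoxp3 cells were 2.96-fold higher than GFPko cells (1.57, SE 0.255, adjusted p = 0.0448). They were also higher than CD25pos cells, by a fitted log2 difference of 2.98 (SE 0.255, adjusted p = 0.0118), and GFPko cells differed from CD25pos cells by 1.41, which did not pass (adjusted p = 0.0744). Of the 2 CD25pos arrays 1 was above background, so the size of the last 2 differences depends on a value near the array's floor and is given without a fold.

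The reading of Prkar1b rests on 1 of its 5 probe sets, whose identifier ends in _x_at and marks probes that may match other transcripts. On the 4 others 9 of the 10 arrays lay between 2.11 and 3.34, near or below the array median. GFPfoxp3 cells after IL-2, the array with the highest reading, stood out on 2 of these 4, at 3.72 against 2.45 to 2.52 on the other 9 arrays, and at 3.62 against 2.74 to 3.03. When probe sets ending in _x_at and _s_at were left out, the difference was 0.61 against GFPko cells (adjusted p = 0.369) and 0.63 against CD25pos cells (adjusted p = 0.364), and neither passed. Leaving out 1 array at a time gave differences of 1.25 to 1.88 against GFPko cells and 2.58 to 3.38 against CD25pos cells. B cell markers differed between the same populations: of 8 listed 7 were measured, with a summed linear level of 4528 with and 4910 without IL-2 in GFPfoxp3 cells, 991 and 1387 in GFPko cells, 2324 and 2466 in CD25pos cells, 3033 in CD25neg cells and 6077 to 6868 on the vector arrays. Ighm was the brightest of them on every array, and the defining markers Cd79a and Pax5 lay below the array median on all 10. Cd79b put the sorted populations in the same order as Prkar1b. It lay at 6.96 with and 6.71 without IL-2 in GFPfoxp3 cells and at 5.36 and 5.02 in GFPko cells. CD25pos cells had 3.88 and 3.26, and CD25neg cells 3.06. Within CD25pos cells Cd79b was higher after IL-2, where Prkar1b was lower. Cd22 did not follow this order, being highest in CD25pos cells, at 6.56 and 6.67, against 4.98 and 4.97 in GFPfoxp3 cells. Ms4a1 varied little on the sorted arrays, between 3.31 and 3.60. Cd74, which other antigen-presenting cells also express, lay at 7.02 and 6.96 in GFPfoxp3 cells, against 3.66 to 4.56 on the other sorted arrays. The part of these markers in the differences of Prkar1b was not tested.

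**Figure D3:**
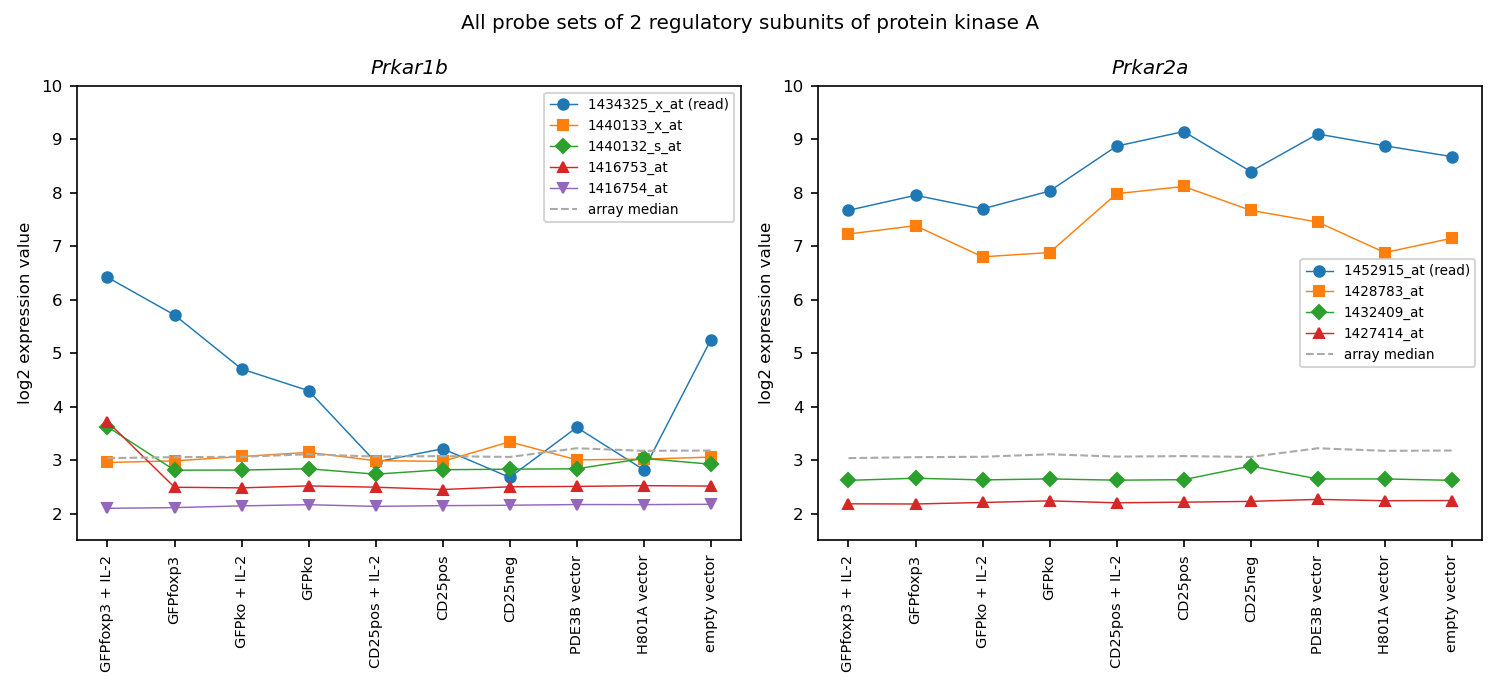
Log2 expression value (vertical axis) of every probe set of Prkar1b (left) and Prkar2a (right) on the 10 arrays (horizontal axis), with the array median dashed. For Prkar1b a single probe set rises far above the median, up to 6.42, and 2 others rise to 3.72 and 3.62 in GFPfoxp3 cells after IL-2, while for Prkar2a both bright probe sets are highest in CD25pos cells among the sorted arrays.

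Prkar1a, the regulatory subunit that most cells express, varied little among the sorted arrays by its read probe set, which lay between 10.05 and 10.27 with a median of 10.18. Its second bright probe set ran from 10.02 to 10.68 there and differed by 0.30 between GFPfoxp3 and GFPko cells, which did not pass (adjusted p = 0.277). By the read probe set the difference of GFPfoxp3 from GFPko cells was -0.029 (interval -0.34 to 0.28) and that from CD25pos cells -0.12 (interval -0.43 to 0.19). Creb1, which binds the element shown above and is activated by phosphorylation rather than by its RNA level, lay between 10.61 and 11.17 on the sorted arrays, and its differences between populations ran from -0.17 to -0.042, none called.

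The CD25neg array had no partner after IL-2, so its comparisons are of single arrays with no test, and a difference of at least 2-fold was counted. In GFPfoxp3 minus CD25neg 1 of the 10 genes passed 2-fold, where 10.9% of all kept genes did (7.31% higher, 3.63% lower): Prkar1b, at 5.71 against 2.68, at least 6.31-fold higher since CD25neg was not above background. In GFPko minus CD25neg 1 gene passed, where 6.73% of all kept genes did (3.93% higher, 2.8% lower): Prkar1b again, at 4.30 against 2.68, at least 2.36-fold higher. In CD25pos minus CD25neg none passed, where 7.25% of all kept genes did (5.55% higher, 1.69% lower), and the largest difference was 0.75 for Prkar2a, at 9.15 against 8.40. Both bounds for Prkar1b rest on its _x_at probe set that was read. On its 4 other probe sets GFPfoxp3 cells lay at 2.11 to 2.99, GFPko cells at 2.17 to 3.14 and CD25neg cells at 2.15 to 3.34. These comparisons share the CD25neg array.

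For IL-2 no difference of these genes passed the test. In the 6-array limma fit 0 of the 10 were called, where 0.235% of all kept genes were (0.235% higher, 0% lower), and 1 had an unadjusted p under 0.05. That gene was Prkar2a, lower after IL-2 in all 3 populations, by 0.28 in GFPfoxp3, 0.33 in GFPko and 0.27 in CD25pos cells (mean -0.30, interval -0.51 to -0.085, adjusted p = 0.393). Counted by single pairs, none of the 10 genes passed 2-fold in GFPfoxp3 cells, where 1.95% of all kept genes did (1.73% higher, 0.218% lower), and none in CD25pos cells, where 1.35% did (0.997% higher, 0.352% lower). In GFPko cells 1 passed, where 4.92% of all kept genes did (2.91% higher, 2% lower): Prkaca, at 8.06 after IL-2 against 10.07 without (-2.01, 4.03-fold lower). In the other populations Prkaca differed by -0.15 (GFPfoxp3) and -0.38 (CD25pos), and its second probe set by -0.40 in GFPko cells. The read probe set of Prkaca, like that of Prkar1b, ends in _x_at and may match other transcripts. Adcy7 was also lowest in GFPko cells after IL-2, by -0.78. Of the 7 listed myeloid markers, 1 lay above the array median on that array. It was Lyz2, at 5.71, against 3.25 to 3.55 on the other sorted arrays, and its part was not tested. The Actb gap was smaller after IL-2 in each population, 2.70 against 3.07 in GFPfoxp3, 2.76 against 3.69 in GFPko and 2.86 against 3.80 in CD25pos cells, and its part in these differences was not tested.

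**Figure D4:**
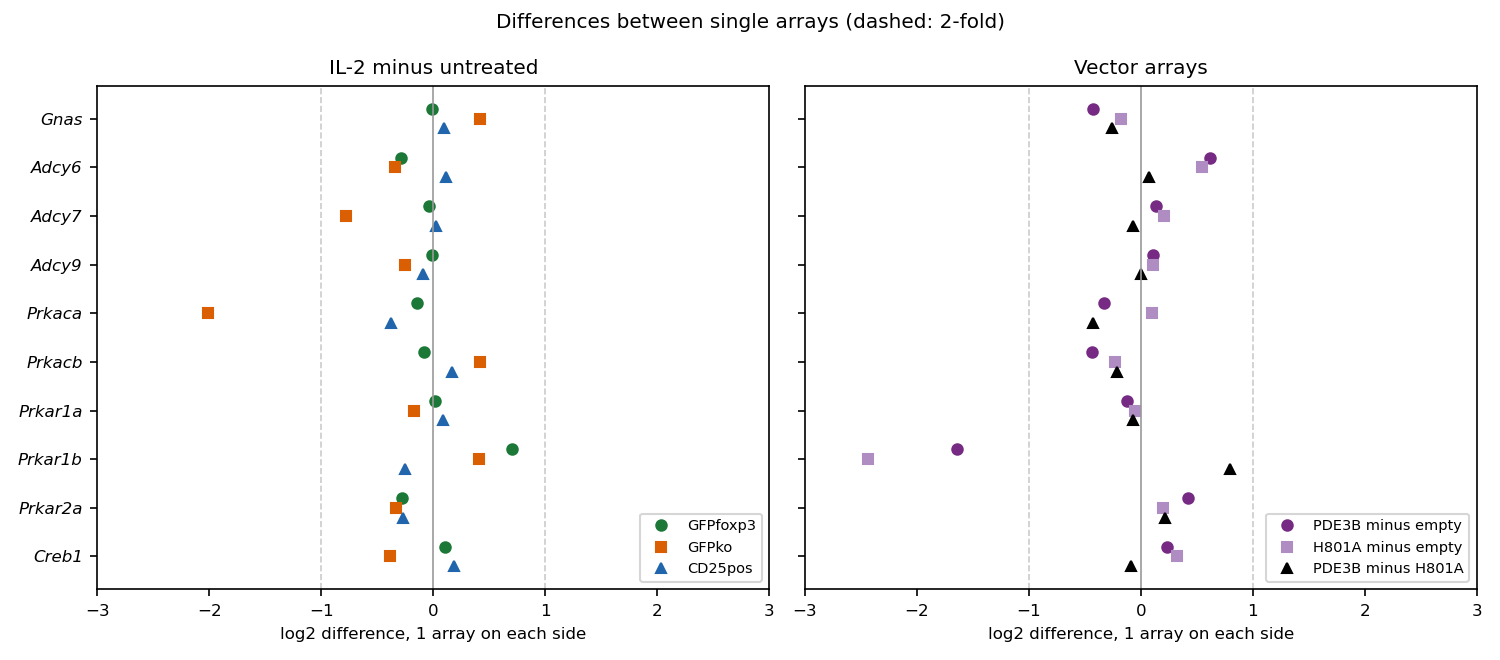
Log2 difference between single arrays (horizontal axis) for each gene, after IL-2 minus untreated (left) and between vector arrays (right). Dashed lines mark 2-fold, which Prkaca passes in GFPko cells at -2.01 and Prkar1b passes against the empty vector at -1.64 with PDE3B and -2.43 with H801A.

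Other genes of the pathway were taken from 8 lists of 64 genes, of which 58 had a probe set of their own and 47 were kept. In GFPfoxp3 against GFPko cells 5 of the 47 were higher and 4 lower, 19.1% called, beside 7.47% of all kept genes. In GFPfoxp3 against CD25pos cells 4 were higher and 3 lower, 14.9%, beside 8.73%. In GFPko against CD25pos cells 1 was higher and 2 lower, 6.38%, beside 3.48%, and by IL-2 none was called (0.235% of all kept genes). The lists were chosen with earlier results of these data known, so these shares do not show that the pathway differs more than other genes. The medians of the 47 differences were -0.085, 0.024 and 0.067 in the 3 population comparisons in this order, beside the medians over all kept genes given above.

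Phosphodiesterases made up 4 of the 9 genes called in GFPfoxp3 against GFPko cells, 4 of 7 in GFPfoxp3 against CD25pos cells and 2 of 3 in GFPko against CD25pos cells. Of 8 kept, 4 differed between GFPfoxp3 and GFPko cells: Pde2a (1.94) and Pde8a (1.24) higher, Pde3b (-4.09) and Pde7a (-1.48) lower. Pde3b lay at 5.90 with and 6.06 without IL-2 in GFPfoxp3 cells, against 9.92 and 10.22 in GFPko cells and 11.63 and 11.62 in CD25pos cells. Against CD25pos cells GFPfoxp3 cells also had 2 higher, Pde8a (0.84) and Pde1b (0.79), and 2 lower, Pde3b (-5.65) and Pde7a (-2.46), and GFPko cells were lower in Pde3b (-1.56) and Pde7a (-0.98).

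Of the 4 kept receptors coupled to the stimulatory G protein, Vipr1, a receptor of vasoactive intestinal peptide, was lower in GFPfoxp3 cells, at 3.87 with and 4.31 without IL-2, against 6.49 and 6.92 in GFPko cells and 7.79 and 7.68 in CD25pos cells. The fitted differences were -2.61 (adjusted p = 0.00938) and -3.64 (adjusted p = 0.00517). None of 7 kept G protein subunits and chaperones was called. Among 5 other kinase subunits and inhibitors Pkig, a small inhibitor of the catalytic subunits, was higher in GFPfoxp3 than in GFPko cells (1.01, adjusted p = 0.0452), which its second probe set did not show (-0.0065). Of 9 anchoring proteins Akap7 was higher in GFPfoxp3 cells, at 4.85 with and 5.23 without IL-2, against 3.53 and 3.57 in GFPko cells and 3.57 and 3.47 in CD25pos cells. Of 9 partners and relatives of CREB, Crem, a transcription factor with activating and repressing isoforms and itself a target of CREB, was higher. It lay at 9.42 with and 8.51 without IL-2 in GFPfoxp3 cells, against 7.44 and 6.96 in GFPko cells (1.77, adjusted p = 0.0161) and 6.57 and 6.17 in CD25pos cells (2.59, adjusted p = 0.00715). Cap1, listed with the cyclases for its name as a cyclase-associated protein and known chiefly as an actin regulator, lay at 8.64 with and 8.75 without IL-2 in GFPfoxp3 cells, against 10.78 and 10.05 in GFPko cells (-1.72, adjusted p = 0.0290), and GFPko cells were higher than CD25pos cells, at 8.68 and 8.45 (1.85, adjusted p = 0.0383). Its second probe set differed by 0.071 and 0.42 in these comparisons.

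With the vectors, the question was whether the phosphodiesterase or its H801A form changed these genes relative to the empty vector, with 1 array each and no test. The Pde3b probe set read 6.91 with PDE3B and 7.54 with H801A, against 7.43 with the empty vector, and whether it covers the transduced sequence is not known here, so the vector arrays are named by their labels. With PDE3B 1 of the 10 genes passed 2-fold, where 5.44% of all kept genes did (1.2% higher, 4.25% lower), and with H801A 1 passed, where 2.29% did (0.93% higher, 1.37% lower). In both cases it was Prkar1b, at 3.61 with PDE3B (3.11-fold lower) and 2.82 with H801A (at least 4.22-fold lower), against 5.25 with the empty vector. On its 4 other probe sets the 3 vector arrays lay between 2.17 and 3.06, near or below the array median. Between PDE3B and H801A none of the 10 genes passed 2-fold, where 3.04% of all kept genes did (0.737% higher, 2.3% lower), and Prkar1b differed by 0.79. Apart from Prkar1b the differences from the empty vector ran from -0.44 (Prkacb, PDE3B) to 0.62 (Adcy6, PDE3B), the last below background on both sides.

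Of the 10 genes the transduced cells differed from the sorted ones most in Adcy6. It lay at 2.74 with PDE3B, 2.66 with H801A and 2.12 with the empty vector, all below the array median, against 6.96 to 8.19 on the 7 sorted arrays. It was at least 21.1-fold lower in the transduced cells, a bound, since no vector array was above background. Adcy6 passed the filter on dim values through the sorted arrays alone, so its place among the lower genes below is no support for a common direction. Of the 10 genes 3 were lower on every vector array than on every sorted one, where 25.2% of all kept genes were so, and 1 was higher, where 17.5% were. Gnas was among the lower, at 10.75, 11.01 and 11.18 against 11.51 to 12.00, as was Prkacb, at 9.68, 9.89 and 10.12 against 10.32 to 11.16. Prkar1a was the higher one, at 10.60, 10.68 and 10.73 against 10.05 to 10.27.

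Probe sets of the same gene split in this comparison. The second bright Prkar1a probe set was lower on the vector arrays, 9.75 to 9.83 against 10.02 to 10.68, the reverse of the first. The second Prkacb probe set was higher on the vector arrays, 3.69 to 4.77 against 2.93 to 3.31, also the reverse. Adcy7 overlapped by its read probe set (12.57 to 12.78 against 11.74 to 12.72), but lay lower by both others, 8.12 to 8.52 against 9.02 to 10.22 and 2.53 to 2.71 against 4.01 to 5.31. The wider 3′ to 5′ gap of the vector arrays, culture, transfer and retroviral transduction all come with this comparison and cannot be told apart, and no array of the vector experiment is of unmanipulated cells.

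**Figure D5:**
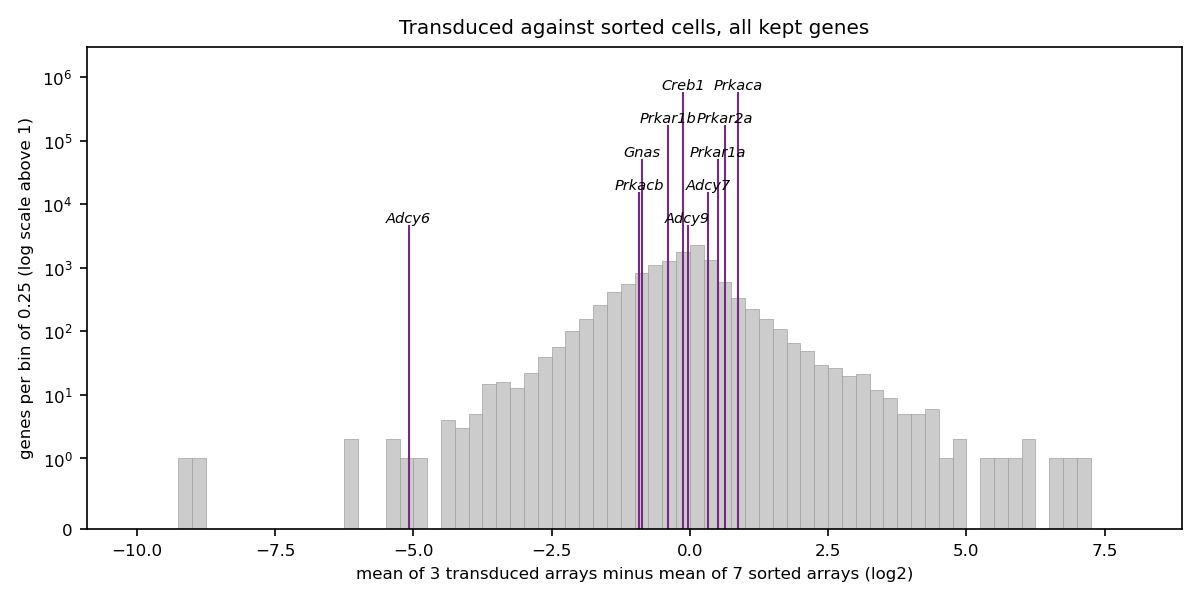
Number of kept genes (vertical axis, log scale above 1) by the mean of the 3 vector arrays minus the mean of the 7 sorted arrays (horizontal axis, log2), with a line for each of the 10 genes. Adcy6, drawn at its measured difference although only a bound of at least 21.1-fold lower holds for it, is to the left of the other 9, which lie between -0.91 and 0.88.

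For the 3 genes that span at least 2 log2 units, the kept genes with the closest pattern over the 10 arrays were sought by Pearson correlation, as a description. Adcy6 was closest to Evl, a regulator of actin (0.996), to Igfbp4 (0.995) and to Cd96 (0.992). Evl, for instance, lay at 8.82 with PDE3B, 9.02 with H801A and 8.66 with the empty vector, against 11.96 to 12.82 on the sorted arrays, so the likeness mainly reflects the split between vector and sorted arrays that these points share. Prkar1b was closest to Rnh1 (0.929), Trib1 (0.928) and Btd (0.925). Prkaca was closest to Smarcd2 (0.973), Arfgap2 (0.966) and Arih2 (0.965), and Smarcd2 was also lowest in GFPko cells after IL-2, at 11.57 against 12.08 to 12.49 on the other sorted arrays.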

How the data were processed

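Gene expression was measured in 10 groups of CD4 T cells with 1 array each. The deposited table holds 45101 probe sets on a log2 scale, read as such from the range of the values. The series' design text says that the authors normalized all 10 arrays jointly, and the labels' protocols give cRNA amplified in 2 rounds. Software and background correction: not given in the sources used here. Such amplification starts at the 3′ end, so distant probe sets lose signal. Names come from the platform annotation, updated by Entrez ID (34754 of 34958 with 1 gene). A probe set was kept where at least 1 array reached its own median, and a gene was read by its brightest. The additive model of population and IL-2 used limma 3.58.1 under R 4.3.3 (2 residual and 2.23 prior degrees of freedom, prior SD 0.129), and the code was tested on simulated data. Single pairs were counted at 2-fold. Where the lower side was below its array median, that median replaced it and the fold is a lower bound. The number of arrays limits every precision. The genes, lists and tests were chosen with earlier results of these data known, and the genes named are all 10, every listed pathway gene called between populations, the 3 closest patterns, and Foxp3 and Pde3b. Alternatives were other normalizations, filters, probe set choices, variance models, thresholds and arrays left out.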

Additional observations from a re-analysis of the deposited data

Results flagged for a closer look

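By its read probe set, Creb1 moved in opposite directions with IL-2 in GFPko and CD25pos cells. It differed by -0.386 in GFPko cells (10.61 after IL-2 against 10.99 without) and by 0.188 in CD25pos cells (11.03 against 10.84). The difference was not tested, since each value compares 1 array with 1 array. The moderated SD of Creb1, 0.177, is that of a single array, and a difference between arrays spreads more widely. That SD also comes from how unevenly the populations differed between the IL-2 states, so it cannot judge this pattern. The second bright probe set of Creb1 read 9.83 after IL-2 against 10.09 without in GFPko cells, and 9.86 against 9.78 in CD25pos cells. The next brightest was lower after IL-2 in both, at 7.35 against 7.80 in GFPko and 7.78 against 7.96 in CD25pos cells. The one after it read 5.06 against 5.13 in GFPko and 5.36 against 4.90 in CD25pos cells. The probe sets of Creb1 therefore disagree on the direction in CD25pos cells.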

How the results depend on the processing

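The direction of each difference called by the test was the same under the alternatives run, but the calls were not. In GFPfoxp3 minus GFPko the count of 2 called genes became 0 under quantile normalization, 0 with no filter on dim genes and 0 with probe sets as the unit (limma, 3 genes at an unadjusted p under 0.05 in each), 1 with the mean of all probe sets (Adcy6), 1 with an intensity trend and robust variance (Prkar1b) and 1 without the CD25pos arrays (Prkar1b). In GFPfoxp3 minus CD25pos it became 1, Prkar2a, with the mean of all probe sets and without probe sets ending in _x_at or _s_at. Centring raised the count to 3 in both GFPfoxp3 comparisons by adding Prkacb, and without probe sets ending in _x_at or _s_at the 2 genes called in GFPfoxp3 minus GFPko were Adcy6 and Gnas, not Prkar1b. In GFPko minus CD25pos it became 2 with centring (Prkar1b and Prkar2a) and 0 without the GFPfoxp3 arrays, where 3 genes had an unadjusted p under 0.05 and Prkar2a stood at -1.14 with an adjusted p of 0.0916. Leaving out 1 array at a time, and testing probe sets as the unit, were chosen after seeing the data. With 1 array left out, 1 array remains in its population and a lost call says little about a gene, so only sizes are given above for these fits. Without any one GFPfoxp3 or GFPko array, no kept gene at all was called in GFPfoxp3 minus GFPko. Over all kept genes, 892 calls in GFPfoxp3 minus GFPko (650 higher, 242 lower) became 1373 with centring, 51.4% of them higher, 382 with no filter and 408 without the CD25pos arrays. In GFPfoxp3 minus CD25pos, 1042 became 609 with no filter, and in GFPko minus CD25pos 416 (149 higher, 267 lower) became 858 with centring, 51.6% of them higher, 33 with no filter and 0 without the GFPfoxp3 arrays. For IL-2, 28 became 121 with centring and 0 in 6 planned settings (quantile normalization, no filter, trend and robust variance, and without each population in turn). Centring moved the median of all genes from 0.0080 to -0.14 in GFPfoxp3 minus GFPko and from -0.015 to 0.13 in GFPko minus CD25pos.

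Among single pairs, the mean of all probe sets took the count of 1 to 0 in GFPfoxp3 minus CD25neg, GFPko minus CD25neg, PDE3B minus empty and H801A minus empty. Without probe sets ending in _x_at or _s_at it was 1 for IL-2 in GFPfoxp3 cells (Prkar1b), 0 for IL-2 in GFPko cells, 0 for PDE3B minus empty and 0 for H801A minus empty, and the 1 gene counted in GFPfoxp3 minus CD25neg and in GFPko minus CD25neg was no longer Prkar1b but Adcy7 and Gnas. Differences that were small or rested on 1 probe set changed sign. With the mean of all probe sets these were Prkar1a (0.030), Prkar2a (0.21), Gnas (-0.30) and Creb1 (0.011) in GFPfoxp3 minus GFPko, Prkar1a (0.0058) and Gnas (-0.050) in GFPfoxp3 minus CD25pos, Gnas (0.25) in GFPko minus CD25pos, and Prkacb (-0.0084), Adcy7 (0.14) and Creb1 (0.060) for IL-2. Without probe sets ending in _x_at or _s_at they were Prkaca (-0.31), Adcy7 (-0.31) and Gnas (-0.89, adjusted p = 0.0224) in GFPfoxp3 minus GFPko, Gnas (-0.20) in GFPfoxp3 minus CD25pos, Prkaca (0.15) and Gnas (0.69) in GFPko minus CD25pos, Adcy7 (0.0066) and Gnas (-0.16) for IL-2, and Prkar1b in GFPfoxp3 minus CD25neg (-0.0083) and H801A minus empty (0.0079). With centring they were Adcy7 (-0.074) in GFPfoxp3 minus GFPko, and Prkacb (0.058), Prkar1a (0.051) and Creb1 (0.011) in GFPko minus CD25pos. Without the GFPko arrays they were Prkar1a (0.049) and Creb1 (0.15) for IL-2. The cause of these changes was not tested beyond the choice of probe set itself. No paired analysis was possible because no group holds a second array to pair by replicate number, beyond the pairing by population and IL-2 state that the additive fit already makes.

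With 1 array per group and 6 arrays in the fit, a difference shown here is one that was alike in 2 IL-2 states, and its spread between animals is unknown. Of the 10 probe sets read, 4 carry identifiers ending in _x_at or _s_at. Only bounds hold where a gene was not above background, as Adcy6 in transduced cells and Prkar1b in CD25neg cells, in CD25pos cells after IL-2 and with H801A.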

Other observations

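Among probe sets that were not the brightest of their gene, a few single arrays stood out. A dim Creb1 probe set read 4.08 in CD25pos cells after IL-2, against 2.71 to 3.26 on the other 9 arrays. The dimmest kept Adcy7 probe set read 5.31 with and 5.10 without IL-2 in GFPfoxp3 cells, 4.82 and 4.09 in GFPko cells and 5.14 and 4.01 in CD25pos cells, higher after IL-2 in each population, which the brightest Adcy7 probe set did not show (12.18 and 12.22, 11.74 and 12.51, 12.58 and 12.55). The IL-2 difference of that dim probe set had an adjusted p of 0.490 with every kept probe set tested.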
